A study of Drosophila melanogaster with 50 samples.

Results

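Odorant binding proteins (Obp) are small secreted proteins, many of which carry hydrophobic odours and pheromones through the lymph that bathes the sensory neurons of the insect antenna. The name covers a wider family: other members are made in taste organs, in the fat body and gut, in glia, or in the male accessory gland and ejaculatory bulb, from which they are transferred to the female at mating. They are grouped by their cysteine pattern into Classic, Minus-C (fewer conserved cysteines) and Plus-C (additional cysteines) forms. The members described here were 47 genes of 11981 that had a probeset of their own, chosen as the probesets whose only gene symbol on the platform annotation was Obp followed by a digit, with the brightest by mean kept for each of the 3 genes that had more than 1. Those 3 genes were Obp19a, Obp19c and Obp59a. Current gene models list 51 such genes, and the 4 without a member probeset were Obp50b, Obp50c, Obp57d and Obp83a. The symbol rule leaves out lush, an antennal odorant binding protein that carries another name, and it is given below only for comparison.

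Whole adult Oregon R flies were measured on 50 one-colour arrays in 18 groups, at 3 facilities that alter gravity, with biological replicates numbered in the sample titles. Whether the replicates came from separate cultures is not stated, so the spread between arrays may be partly technical. The Random Positioning Machine (RPM), which turns flies continuously to simulate 0g, held flies of 5 d at 14C: 3 arrays labelled females and 4 labelled males at 0g, with 3 and 3 outside at 1g. The magnetic levitator held flies labelled females of 5 d at 14C at 0g*, 1g* and 2g* (3 arrays each, the asterisk marking the magnetic field), with 2 arrays outside at 14C and 3 outside at 24C, 1 of which has 14C in another label. A further magnet set, marked 80 h in its titles, held 2 arrays at 0g* and 2 at 1g*, both at 14C, and 3 outside at 24C. The labels do not give the duration for the other magnet arrays. The Large Diameter Centrifuge (LDC) held flies labelled females at 22C, of 5 d and of 20 d, each with 4 arrays at 2g, 2 at the rotational 1g control (1g-rot) and 2 outside at 1g. No allele, transgene or drug was named, and wild-type Oregon R flies made up every group.

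Values are log2 hybridisation intensities, and a difference of 1 is 2-fold. The background of a group was the 95th percentile of 50 probesets for plant control genes, and it lay between 3.92 and 4.41. Array medians lay between 5.23 and 5.85. The RPM arrays ran against their sex labels: the accessory gland list (17 genes, of which Acp36DE is a seminal protein gene) had a median over 5 on 6 of 6 arrays labelled females and on 1 of 7 labelled males, and the yolk and eggshell list had a median over 7 on 1 and on 7 of them. They are therefore called "arrays labelled females" and "arrays labelled males" throughout. Transcripts of both sexes stood above those levels on 4 arrays: labelled females at 0g replicate 2, labelled males at 0g replicate 1, magnet 1g* replicate 1 and 80 h magnet 1g* replicate 1. The 3′ minus 5′ signal of the GAPDH control, which rises as RNA shortens, ran from 1.13 to 1.42 on arrays labelled females, from 1.47 to 1.70 on arrays labelled males, from 1.66 to 2.93 at the magnet and from 1.31 to 1.83 at the centrifuge.

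Of the 47 members, 15 had a mean at least 1 above background in all 18 groups, 17 in some groups and 15 in none. The first class held Obp99c, Obp44a, Obp99a and Obp99b of the Minus-C form, Obp49a of the Plus-C form, Obp56g and Obp56e of the seminal fluid set, and Obp56d, Obp56a, Obp57a, Obp57b, Obp57c, Obp18a, Obp19b and Obp19d. Over the 50 arrays their probesets spanned from 1.88 (Obp18a, 8.32 to 10.20) to 7.23 (Obp56g, 6.41 to 13.64). The class at background ran from 3.19 to 5.32 on any array, with a span of 0.68 to 1.19 for each member. It held 10 of the 11 Plus-C members, Obp59a, a gene of humidity sensing in the antenna, and Obp56b, Obp56c, Obp47a and Obp57e, the last of which takes part in taste responses to host plant acids in other Drosophila species. Obp57d, its neighbour, was covered only by probesets shared with Cpr57A and has no value of its own. A level near background does not show that a gene was silent in a small organ of a whole fly.

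**Figure D1:**
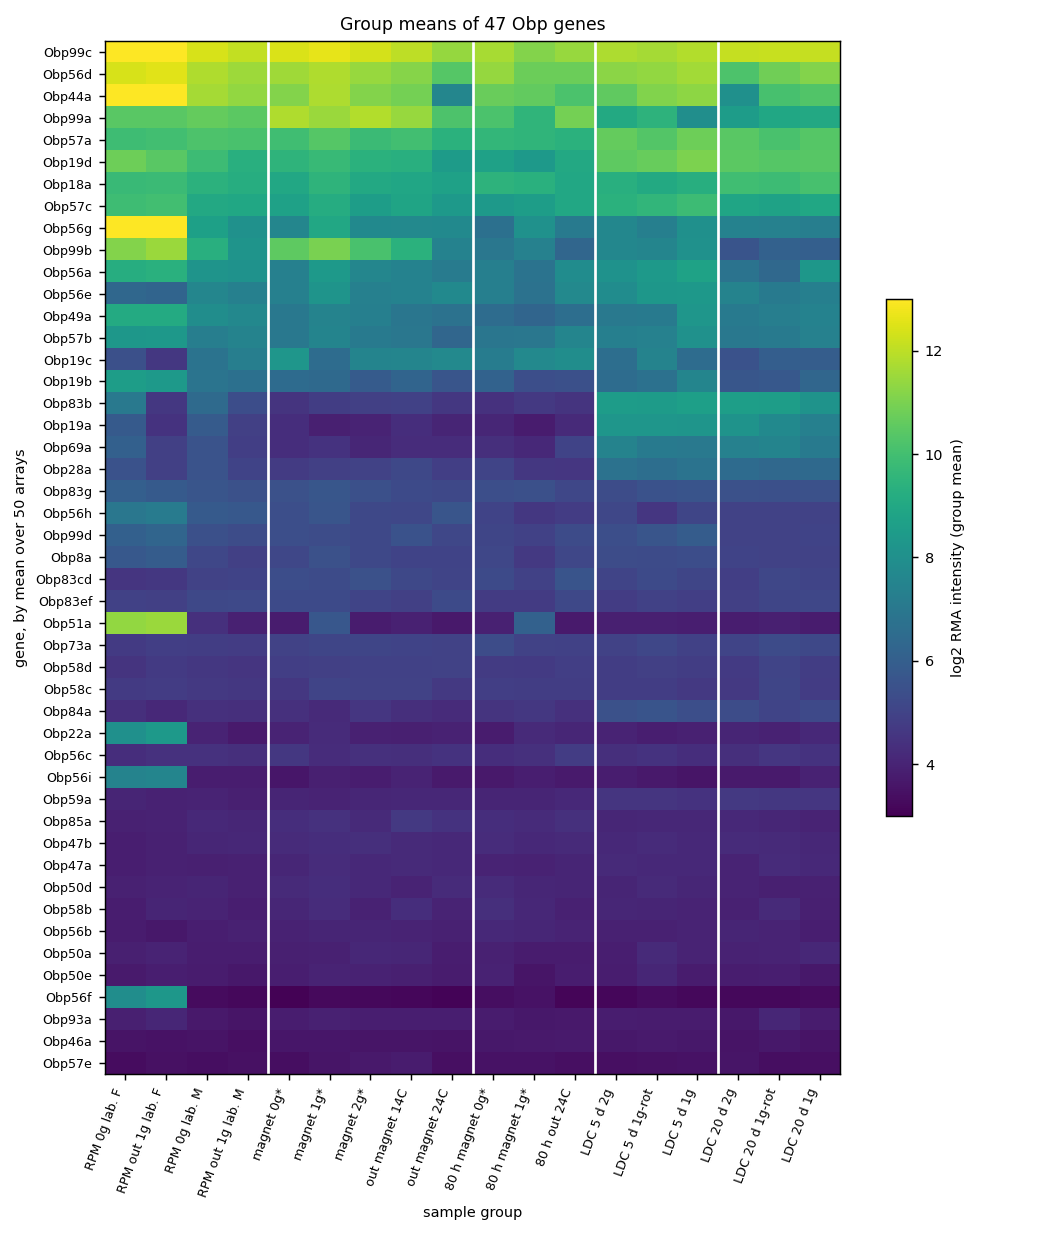
Group mean log2 intensity (colour) of the 47 Obp genes (rows, in the order of their mean over 50 arrays, which does not rank transcript amounts because probesets differ in response) in the 18 groups (columns). "Lab." marks the sex label of RPM arrays and "out" the arrays outside a facility; white lines part the RPM, magnet, 80 h magnet, 5 d centrifuge and 20 d centrifuge groups, and the 15 genes near background are dark in every column.

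Neighbouring genes did not always share a class. The gene models place 26 of the members on chromosome arm 2R and 11 on 3R, and on 2R Obp56a to Obp56f lie next to each other with no other protein-coding gene between them. In that run Obp56a, Obp56d and Obp56e were above background in all groups, Obp56b and Obp56c were near background, and Obp56f was above background only on arrays labelled females. On X, Obp19a, Obp19b, Obp19c and Obp19d form a run of 4 with different patterns, described below.

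Of the antennal members, 4 separated the facilities without overlap. Obp83b (first described as OS-E), Obp19a, Obp69a (linked to pheromone-dependent social behaviour), Obp28a (abundant in the lymph of antennal sensilla) and Obp84a are known from the support cells of the antenna. Obp83b lay between 8.06 and 8.96 (median 8.55) on the 16 centrifuge arrays and between 4.36 and 5.15 (median 4.70) on the 21 arrays of the magnet and its outside controls. Obp19a lay between 7.36 and 8.44 against 3.58 and 4.61, with medians of 8.12 and 4.04. Every centrifuge array was thus above every magnet array for both genes, whatever the gravity level, and the magnet arrays were near background. The same held for Obp69a, with 6.81 to 7.74 (median 7.25) against 3.90 to 5.15 (median 4.31), and for Obp28a, with 6.15 to 7.13 (median 6.57) against 4.40 to 5.23 (median 4.77). Obp84a, at 4.87 to 5.66 against 4.09 to 4.96, overlapped slightly. Among all 11981 genes, the mean difference between the 2 facilities placed Obp19a (3.97) at rank 3, Obp83b (3.84) at rank 5 and Obp69a (2.94) at rank 11. These ranks rest on the brightest probeset of each gene. Obp19a has another probeset, with a mean of 5.07, which was not compared between the facilities. Obp19d did not overlap either, with 10.22 to 11.11 at the centrifuge and 8.19 to 9.96 at the magnet; its probeset carries the suffix for possible hybridisation to other transcripts. These 5 members were above on every array and 0 members were below on every array. Over all probesets tested the shares were 0.437% above and 0.17% below.

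**Figure D2:**
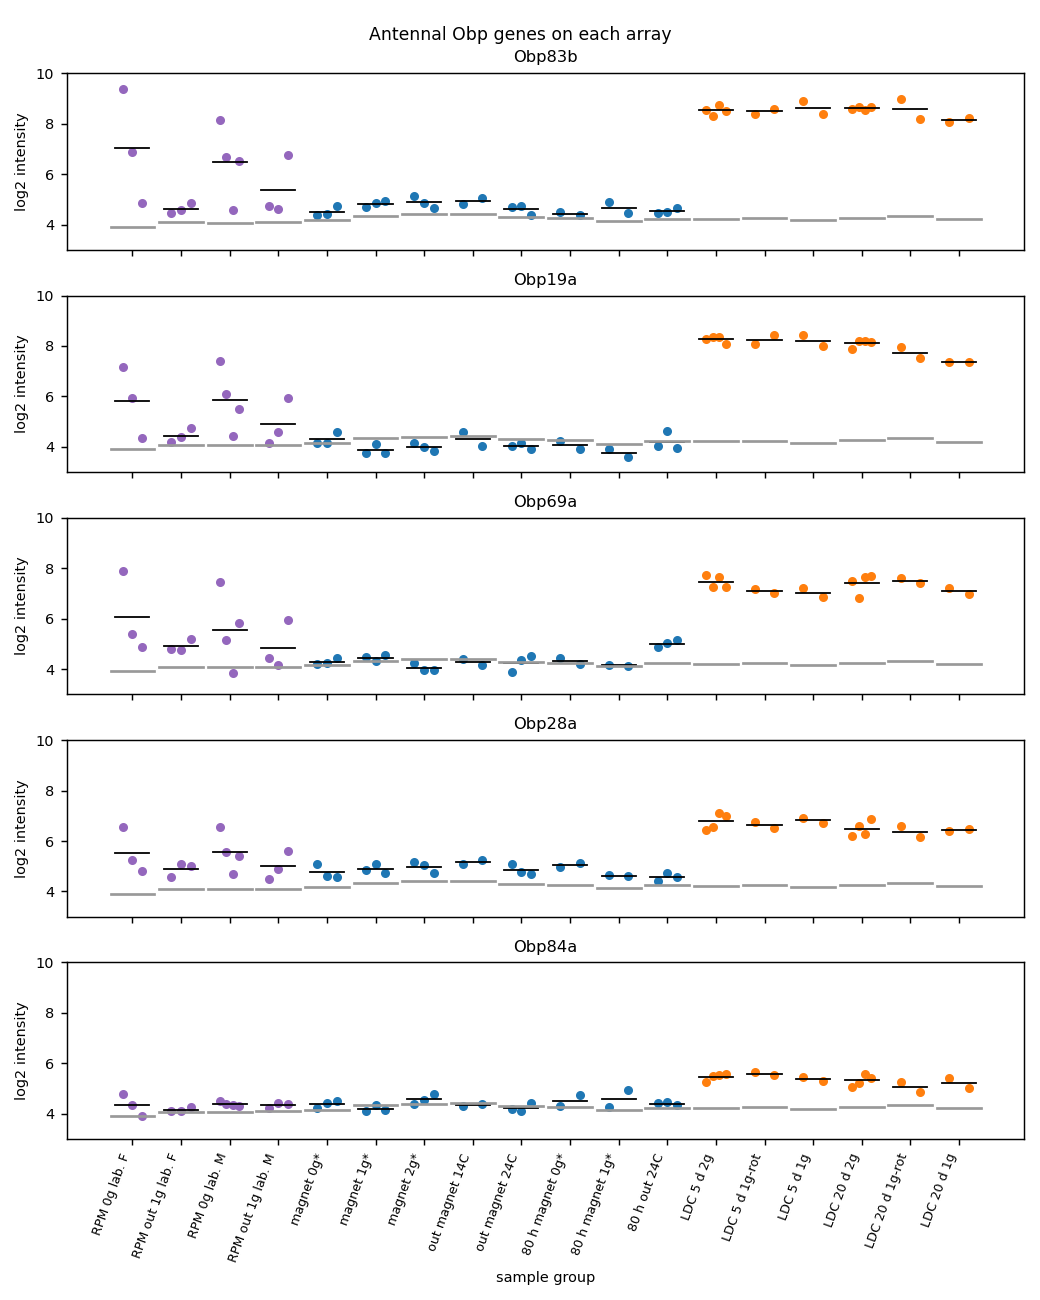
Log2 intensity of 5 antennal Obp genes on each of the 50 arrays (points) by sample group, with group means (black bars) and the group's background (grey bars). Centrifuge arrays (LDC, orange) lie above all magnet arrays (blue) for Obp83b, Obp19a, Obp69a and Obp28a, and RPM arrays (purple) scatter from the magnet range up to the centrifuge range, with 1 array of Obp83b above it (9.38).

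This comparison across facilities was added after seeing the data. In a fit of all 18 groups, flies of 5 d outside the centrifuge at 1g and 22C were set against flies of the same age and label outside the magnet. Against the 14C flies, 12 members were called at an adjusted p under 0.05 (11 higher, 1 lower) where 5.63% of all probesets were (4.4% higher, 1.24% lower). Against the 24C flies, 17 were called (16 higher, 1 lower) with a background of 19.3% (10.2% higher, 9.12% lower). Obp19a was higher by 3.91 against 14C (limma adjusted p = 3.41e-05) and by 4.18 against 24C (limma adjusted p = 1.54e-07). Obp83b was higher by 3.70 and 4.03, Obp69a by 2.76 and 2.77, Obp28a by 1.66 and 1.96, and Obp84a by 1.05 and 1.14, and all of these differences passed in both comparisons. Outside the magnet the group means of Obp19a, Obp69a and Obp84a were below background at both temperatures. Their differences are fitted values that reach below the background and are not bounds. At 24C Obp19a measured 4.02, 4.14 and 3.93 where the background was 4.30. The sixth antennal member, Obp59a, at 4.53 and 4.41 on the 2 arrays outside the centrifuge, was near background everywhere and was not called. In each comparison 5 of the members called higher were among these 6 listed antennal members, and the list need not hold every Obp gene of the antenna. The others higher against 14C were Obp19b, Obp19d, Obp49a, Obp56a, Obp57b and Obp57c. Against 24C the same genes were higher, and so were Obp44a (by 3.69), Obp18a, Obp56d, Obp57a and Obp99d. The difference between facilities was thus not particular to the 6 listed antennal members. Without replicate 1 of the 1g arrays outside the centrifuge, 5 members were called in place of 12 against the 14C flies, and Obp19a was the only antennal member still among them (limma adjusted p = 0.00505). Obp84a (limma adjusted p = 0.0568), Obp83b (0.0639), Obp69a (0.129) and Obp28a (0.133) lost their call without that array. With each array centred on its median, which moves the 24C comparison by 0.18, the members divided into 15 higher and 5 lower and all probesets went from 52.8% to 25.6% of calls higher; against 14C the same share went from 78.1% to 59.9%. The 5 antennal members called kept their direction and their call under that centring in both comparisons. Facility, temperature and run cannot be told apart in these comparisons, and fewer antennae or antennal cells in the RNA cannot be told apart from less RNA per cell.

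Other antennal genes lay on the same arrays. The other olfactory list held 18 measured genes, and 4 of them were above on every centrifuge array. Of these, lush ranged from 5.58 to 6.33 against 4.13 to 4.74. The others were Os-C (7.27 to 8.30 against 4.55 to 5.41), a10 and Jhedup. These 3 antennal genes were named after their values were seen, so they add no separate support and the count of 4 is not a result. The median of that list overlapped, at 4.48 to 4.81 and 4.20 to 4.53. Orco, the co-receptor of most odorant receptors, was at 4.72 to 5.39 against 4.07 to 4.78 and overlapped. Of the 9 measured eye genes 0 divided the facilities without overlap, and the eye list median was 7.14 to 8.81 at the centrifuge and 5.58 to 8.71 at the magnet. In the groups of the fit it was 8.62 and 8.79 outside the centrifuge, 7.76 and 8.26 outside the magnet at 14C and 5.58 to 5.66 at 24C. The 3′ minus 5′ signal of GAPDH was higher at the magnet than at the centrifuge by its median (1.98 and 1.63), with overlap, and the part of either measure in these differences was not tested.

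At the RPM the antennal members varied between arrays of the same group. On arrays labelled females Obp83b measured 9.38, 6.86 and 4.87 at 0g and 4.45, 4.59 and 4.87 at 1g. On arrays labelled males it measured 8.14, 6.66, 4.59 and 6.51 at 0g and 4.72, 4.63 and 6.76 at 1g. The ranges of 0g and 1g thus overlapped in both labels, and a single 1g array reached the level of the higher 0g arrays. The 6 arrays that ranked highest for Obp83b of the 13 were also the 6 highest for Obp19a and Obp28a and held 5 of the 6 highest for Obp69a. They held 5 of the 6 highest for lush. They were also the 6 highest for Os-C, a10 and Jhedup, which were named after their values were seen. These genes come from the same 13 RNA samples, so this order describes arrays and not genes. The olfactory list median on arrays labelled males was 4.26 to 4.54 at 0g and 4.19 to 4.22 at 1g, where the backgrounds were 4.08 and 4.09. The median difference over that list was 0.12 on arrays labelled males and -0.005 on arrays labelled females. In both labels 0 of its 18 genes were called. Among the 6 arrays were 2 with transcripts of both sexes, labelled females at 0g replicate 2 (6.86) and labelled males at 0g replicate 1 (8.14).

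Neither 0g comparison at the RPM called a member. In arrays labelled females, 0 of 47 passed, with a background of 0% and 1 member at an unadjusted p under 0.05. The members with the smallest p were Obp83b (2.40 higher at 0g, SE 1.01, limma adjusted p = 0.765), Obp19a (1.37, SE 0.74), Obp93a (-0.19, SE 0.10) and Obp22a (-0.35, SE 0.19). In arrays labelled males, 0 of 47 passed, with a background of 0.00533% and 4 members at an unadjusted p under 0.05. There the members were Obp99c (0.32, SE 0.10, limma adjusted p = 0.781), Obp99b (1.13, SE 0.40), Obp57b (-0.18, SE 0.19) and Obp57e (-0.07, SE 0.08). Obp99b was highest, at 10.37, on 0g replicate 1, which carries transcripts of both sexes. It measured 8.44 to 9.28 on the other 0g arrays and 7.61 to 8.54 at 1g. The difference of the 0g effect between the labels called 0 members (background 0%), with 5 at an unadjusted p under 0.05 and the smallest p at Obp8a (0.40, SE 0.15, limma adjusted p = 0.498).

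The seminal fluid members showed the largest differences between the labels. Obp51a, Obp56f, Obp22a and Obp56i encode proteins transferred to females in the ejaculate, and Obp56g is a product of the ejaculatory bulb needed for the mating plug. Outside the RPM at 1g, Obp51a measured 11.53, 11.49 and 11.51 on arrays labelled females and 3.90, 3.80 and 4.02 on arrays labelled males. Obp56f measured 8.44, 7.90 and 8.57 against 3.21, 3.30 and 3.19. Obp22a measured 8.28, 8.43 and 8.37 against 3.77, 3.68 and 3.71, and Obp56i 7.58, 7.35 and 7.69 against 3.60, 3.81 and 4.04. In each of these 4 genes the arrays labelled males were at background, so the differences are bounds against the background. Arrays labelled females were higher by at least 7.42 in Obp51a, 4.27 in Obp22a, 4.21 in Obp56f and 3.45 in Obp56i. The fitted values all passed (limma adjusted p between 8.79e-10 for Obp22a and 4.33e-08 for Obp51a). Obp56g measured 13.63, 13.58 and 13.64 against 8.37, 7.82 and 7.96 and fell by 5.57 (SE 0.40) on arrays labelled males, where it stayed well above background. Obp8a fell by 1.03 (SE 0.11). Obp56e, the remaining gene of the set, ran the other way, with 5.91, 6.06 and 6.67 on arrays labelled females and 7.55, 7.19 and 7.35 on arrays labelled males.

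**Figure D3:**
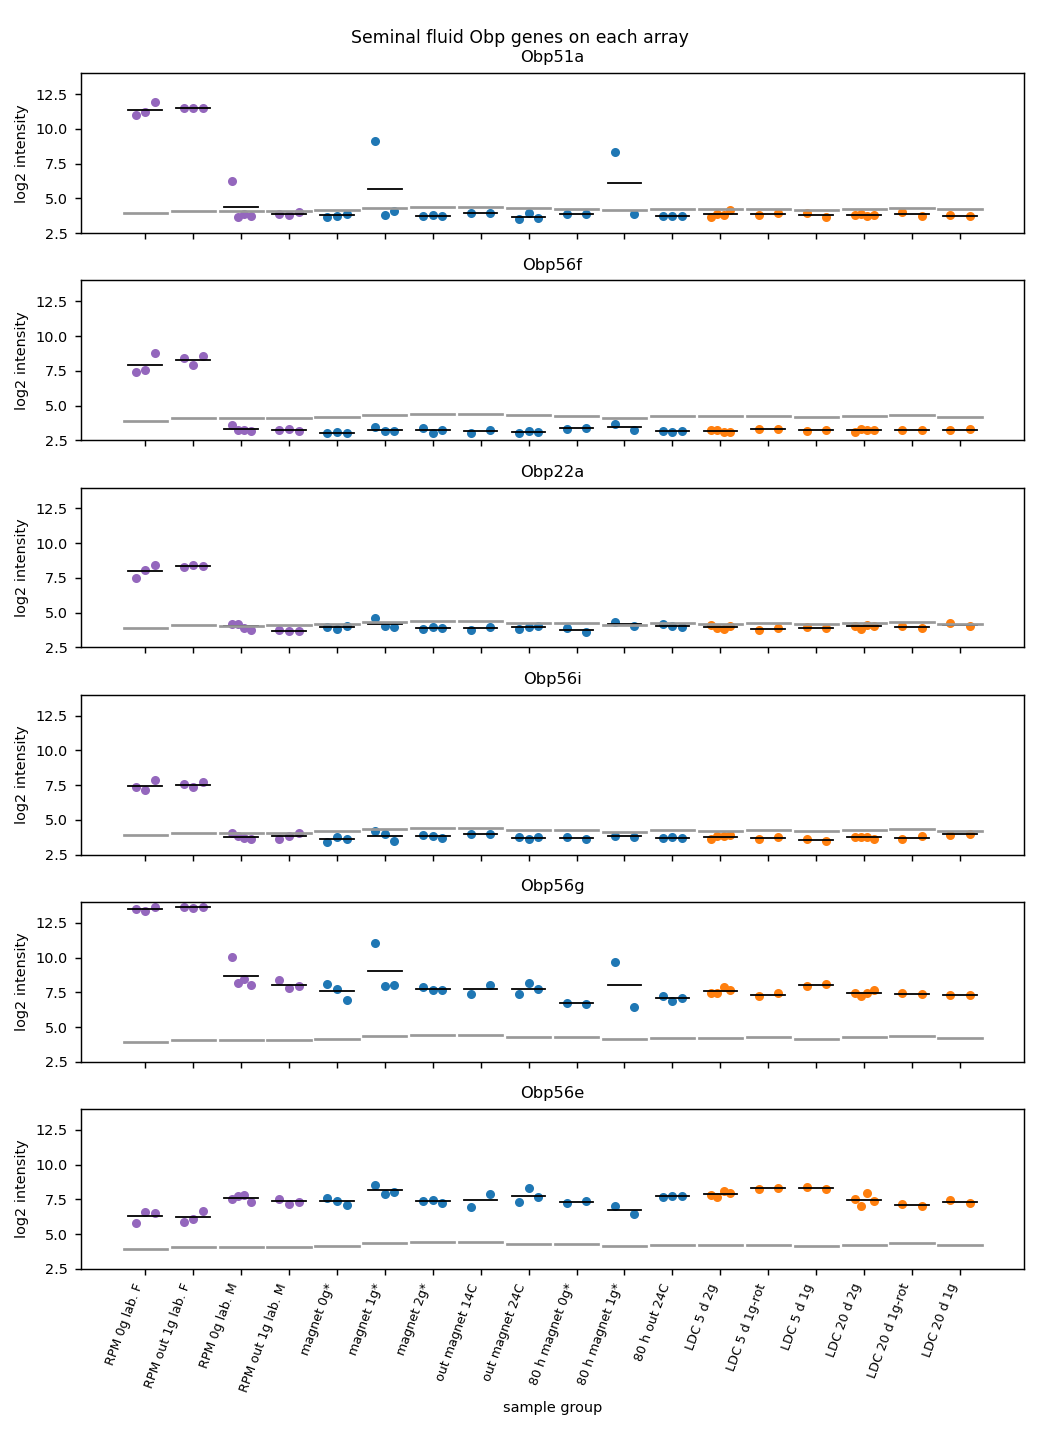
Log2 intensity of 6 seminal fluid Obp genes on each array (points) by sample group, with group means (black bars) and background (grey bars). Arrays labelled females at the RPM are highest for Obp51a, Obp56f, Obp22a, Obp56i and Obp56g, and the single high points of Obp51a and Obp56g in other groups belong to arrays that carry both sexes' transcripts.

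Obp51a and Obp56g also stood out on 3 of the 4 arrays that carry both sexes' transcripts, in groups otherwise at the lower level. Obp51a stood at 9.16 on magnet 1g* replicate 1, where the other replicates had 3.83 and 4.11. It stood at 8.35 on 80 h magnet 1g* replicate 1 against 3.85, and at 6.28 on labelled males at 0g replicate 1 against 3.66 to 3.90. Obp56g stood at 11.03, 9.69 and 10.07 on the same 3 arrays, above the other arrays of each group, and the means of those groups rest on them. On the fourth, labelled females at 0g replicate 2, both genes were near the other replicates, at 11.20 and 13.37.

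Over all members, 23 of 47 were called between the labels at 1g, 3 higher and 20 lower on arrays labelled males, where 52.4% of all probesets were called (29.8% higher, 22.7% lower). The median difference was -0.16 over members and 0.06 over all probesets. Array medians shifted by -0.37 on arrays labelled males, and the GAPDH 3′ minus 5′ signal was 1.55 to 1.57 there and 1.30 to 1.42 on arrays labelled females, without a test of its part. Of the 9 measured eye genes, 9 were called lower on arrays labelled males, with differences from -1.35 to -0.63 (median -1.13). The part of this in the member differences was not tested either. With each array centred on its median, 11 members were higher and 18 lower, and all probesets went from 56.8% to 78.9% of calls higher, so the split over members depends on the scaling. The 7 seminal members kept their direction and their call under that centring. Outside the seminal set, the largest differences among those without overlap were Obp99b, a gene of the fat body with male-biased expression (11.29, 11.81 and 11.34 on arrays labelled females against 8.41, 7.61 and 8.54, difference -3.29, SE 0.43), Obp19c (2.66, SE 0.57), Obp19b (-1.71, SE 0.19) and Obp44a (-1.66, SE 0.17). Obp19c has another probeset near background, with a mean of 4.06. With the mean of its probesets the difference was 1.33 (limma adjusted p = 0.0017). Of the Minus-C members 5 of 6 were lower and Obp99a was not called (10.59, 10.35 and 10.44 against 10.45, 10.39 and 10.56). Of the antennal members 0 of 6 were called, with values that overlapped for Obp83b. Obp49a, a gene of bitter taste, fell by 1.44 (SE 0.18) on arrays labelled males, Obp56h, whose loss alters mating behaviour, by 1.41 (SE 0.29), Obp56a by 1.27 (SE 0.17) and Obp56d by 1.02 (SE 0.15). Obp93a was called with both groups at or below background (difference -0.52), and it lost the call with the centring.

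Obp19c varied widely between replicates outside the RPM. On the 2 arrays of 5 d flies outside the centrifuge it measured 4.91 and 8.14, on the 2 of 20 d flies 4.97 and 6.96, and on magnet 1g* arrays 6.80, 7.83 and 4.95. At the RPM, arrays labelled females had 4.50 to 4.76 on 5 of 6 arrays and 6.97 on replicate 2 at 0g, the one with transcripts of both sexes. Low values of Obp19c did not always go with a low yolk and eggshell median. That median was 9.94 on magnet 1g* replicate 3, 7.96 on 20 d 1g-rot replicate 1 (Obp19c 4.77) and 9.85 on 20 d 1g replicate 1, but 12.01 on 5 d 1g replicate 1 and 12.11 on 20 d 2g replicate 3 (Obp19c 4.82). Its part in the spread was not tested.

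Temperature outside the magnet called a single member. Obp44a, a Minus-C gene of glia and other tissues, measured 6.91, 8.47 and 7.43 at 24C and 10.64 and 11.19 at 14C. All 3 arrays at 24C were below both arrays at 14C. It fell by 3.31 (SE 0.37, limma adjusted p = 5.49e-04), where 0.48% of all probesets were called, all of them lower. The other members did not pass, though 8 of 47, Obp44a included, had an unadjusted p under 0.05 against 7.69% of all probesets. Among them were Obp99b at 6.77, 8.71 and 6.87 against 8.81 and 9.99, and Obp99a at 10.62, 9.40 and 10.60 against 11.76 and 11.19. The call of Obp44a was lost in a fit of the 2 groups alone (limma adjusted p = 0.0533) and when replicate 1 of the 24C arrays, which carries 14C in another label, was placed with the 14C arrays (fall by 1.63). On the 24C arrays the eye list median was 5.58 to 5.66, and at 14C it was 7.76 and 8.26. Arr1, a photoreceptor arrestin gene, fell by 4.93 at 24C in the same fit. The GAPDH 3′ minus 5′ signal was 1.90 to 2.05 and 1.66 to 1.87. The part of either in the fall of Obp44a was not tested.

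**Figure D4:**
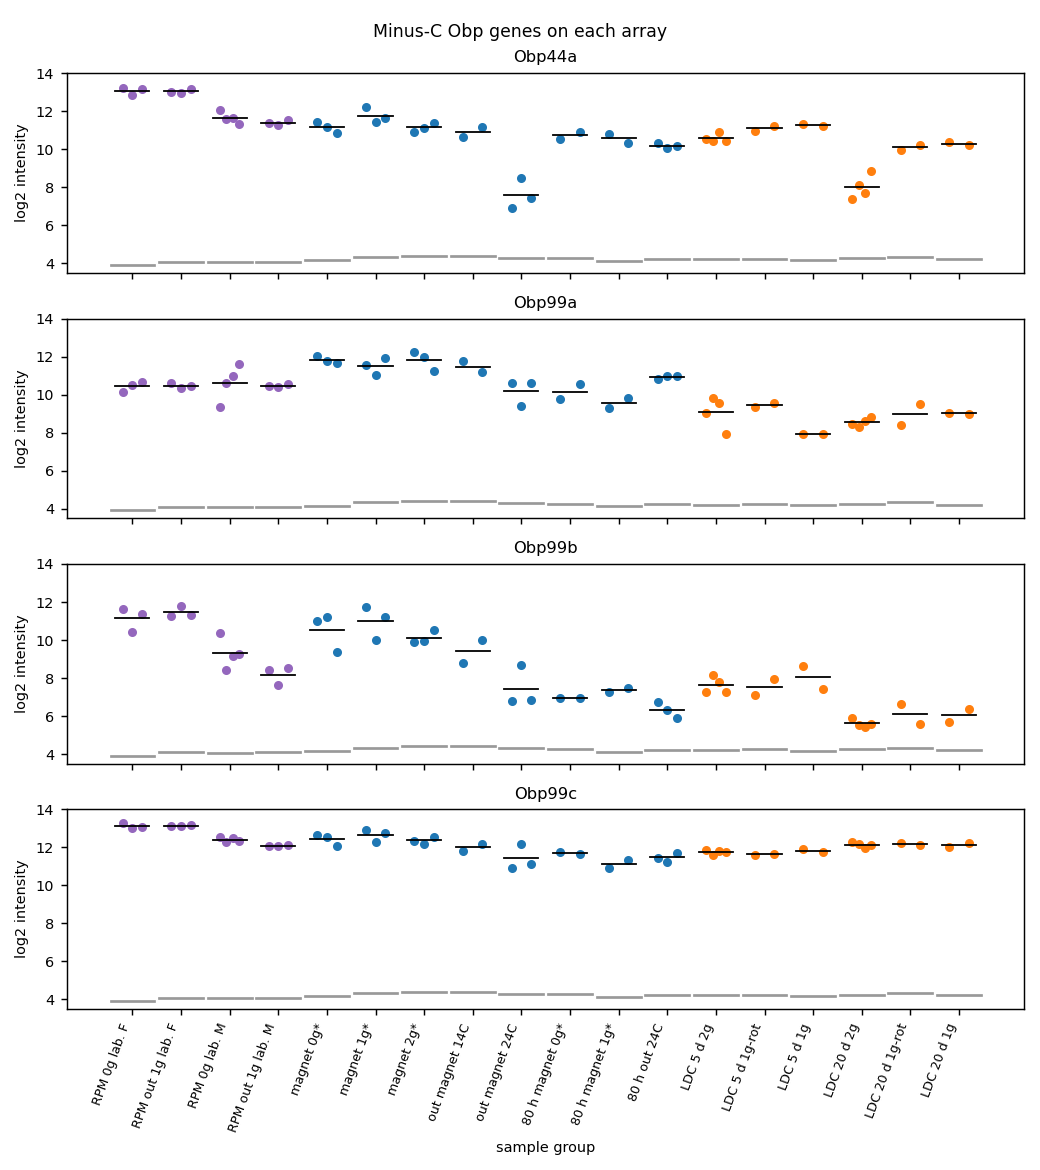
Log2 intensity of 4 Minus-C Obp genes on each array (points) by sample group, with group means (black bars) and background (grey bars). Obp44a was lowest outside the magnet at 24C (6.91 to 8.47) and in the centrifuge at 2g at 20 d (7.39 to 8.84), and Obp99a ran from 7.91 to 9.82 at the centrifuge and from 9.28 to 12.25 at the magnet.

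Of the Minus-C genes, Obp99a was lower at the centrifuge than at the magnet, opposite to the antennal members. The mean difference was -2.18, rank 3 among the falls of all genes. Obp99a ran from 7.91 to 9.82 at the centrifuge and from 9.28 to 12.25 at the magnet, and the ranges overlapped. Obp99a was also the member called lower in both comparisons across facilities: it fell by 3.55 against 14C (7.91 and 7.95 outside the centrifuge, 11.76 and 11.19 outside the magnet, limma adjusted p = 1.13e-05) and fell by 2.28 against 24C (limma adjusted p = 2.31e-04). Obp99b ran from 5.42 to 8.66 at the centrifuge and from 5.88 to 11.73 at the magnet, with a mean difference of -1.97 over arrays of both ages. It was called in neither comparison of 5 d flies (differences -1.34 and 0.60). Obp99c measured 10.92 to 13.27 over all 50 arrays. Obp99d measured 4.50 to 6.57.

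Inside the magnet no comparison called a member. Against the outside flies at 14C, 0g*, 1g* and 2g* each gave 0 of 47, with 2, 10 and 1 members at an unadjusted p under 0.05 and backgrounds of 0%, 0.0266% and 0%. In 0g* Obp83ef (0.35, SE 0.18) and Obp56c (0.24, SE 0.14) had the smallest p upwards and Obp85a (-0.36, SE 0.12, limma adjusted p = 0.9998) and Obp83b (-0.43, SE 0.18) downwards. In 1g* they were Obp56h (0.51, SE 0.17, limma adjusted p = 0.202), Obp8a (0.50, SE 0.20), Obp19a (-0.43, SE 0.19) and Obp85a (-0.26, SE 0.12). In 2g* they were Obp49a (0.41, SE 0.23), Obp84a (0.24, SE 0.15), Obp85a (-0.48, SE 0.12, limma adjusted p = 0.808) and Obp58b (-0.32, SE 0.19). These 3 comparisons share the 2 outside arrays.

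Between positions in the magnet the counts were again 0 of 47, with backgrounds of 0.0213% for 0g* minus 1g*, 0% for 2g* minus 1g* and 0% for 0g* minus 2g*, and with 9, 6 and 2 members at an unadjusted p under 0.05. In 0g* against 1g* the smallest p values belonged to Obp56e (-0.81, SE 0.28, limma adjusted p = 0.140), Obp56a (-1.06, SE 0.42), Obp19c (1.72, SE 0.62) and Obp56c (0.32, SE 0.12). The 1g* group includes replicate 1, which carries transcripts of both sexes. On that array Obp56e was at 8.55 (others 7.89 and 8.05) and Obp56a at 8.92 (others 8.21 and 8.14). In 2g* against 1g* they belonged to Obp19b (-0.57, SE 0.19, limma adjusted p = 0.320), Obp56h (-0.45, SE 0.15), Obp84a (0.39, SE 0.14) and Obp19c (1.00, SE 0.62). In 0g* against 2g* they belonged to Obp19b (0.64, SE 0.19, limma adjusted p = 0.996), Obp19a (0.31, SE 0.17), Obp83b (-0.38, SE 0.16) and Obp58c (-0.34, SE 0.18). The eye list median was 7.44 to 8.04 at 0g*, 7.61 to 7.97 at 2g* and 8.21 to 8.71 at 1g*, without overlap with 1g*, and its part was not tested.

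In the 80 h set, 0g* against 1g* called 0 members (background 0.00533%), with 11 at an unadjusted p under 0.05. The smallest p values were those of Obp19b (6.19 and 6.07 against 5.47 and 5.36, limma adjusted p = 0.507), Obp56d (0.69, SE 0.17), Obp22a (-0.47, SE 0.17) and Obp51a (-2.20, SE 1.07), the last resting on the array with transcripts of both sexes. Against outside flies at 24C, 0g* called 0 members (background 0.927%), with 17 at an unadjusted p under 0.05. There Obp57c (-0.61, SE 0.12, limma adjusted p = 0.0644), Obp69a (-0.69, SE 0.14), Obp19b (0.70, SE 0.15) and Obp56d (0.69, SE 0.15) had the smallest p. Several other settings called 1 or 2 members in that comparison.

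The 1g* flies of the 80 h set were the exception, with 4 members lower than outside at 24C where 1.01% of all probesets were called (0.549% lower). Obp69a measured 4.16 and 4.14 inside and 4.87, 5.03 and 5.15 outside. Obp99a measured 9.28 and 9.82 inside and 10.83, 10.96 and 10.96 outside. Obp56e fell by 0.96 (SE 0.17) and Obp83cd by 0.70 (SE 0.13). Their limma adjusted p values lay between 0.0293 (Obp69a) and 0.0497 (Obp83cd). Without 1g* replicate 1, which carries transcripts of both sexes, 1 member was called, and without 1 of the outside arrays the count was 1 (replicate 1) or 0 (replicates 2 and 3). Obp44a was low outside the magnet at 24C on the arrays not marked 80 h. In the 80 h set it measured 10.33, 10.05 and 10.16 outside at 24C, with 10.83 and 10.34 at 1g* and 14C (0.41 higher at 1g*, SE 0.18, limma adjusted p = 0.361). Temperature and magnetic field cannot be told apart in these comparisons.

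At the centrifuge, gravity called few members in flies of 5 d. Between 2g and 1g outside, 1 of 47 was called (background 0.0586%). Obp49a measured 6.86, 6.90, 7.27 and 7.20 at 2g, 7.08 and 7.08 at 1g-rot, and 8.25 and 8.26 at 1g outside. Against 1g outside it fell by 1.20 at 2g (SE 0.19, limma adjusted p = 0.0285) and differed by -1.18 at 1g-rot (SE 0.22, limma adjusted p = 0.116), so the flies at 2g were near those of the rotational control. The call of Obp49a at 2g did not survive leaving out any 1 of the 6 arrays (limma adjusted p from 0.0503 to 0.732). Between 2g and 1g-rot 0 of 47 were called (background 0.165%, 5 members at an unadjusted p under 0.05), with Obp56h (0.53, SE 0.18, limma adjusted p = 0.489), Obp57a (0.35, SE 0.16), Obp56e (-0.43, SE 0.18) and Obp50e (-0.28, SE 0.13) having the smallest p. Between 1g-rot and 1g outside 0 of 47 were called (background 0.0426%, 9 at an unadjusted p under 0.05), and Obp49a, Obp56g (-0.69, SE 0.16), Obp99a (1.53, SE 0.44) and Obp50e (0.32, SE 0.15) had the smallest p.

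In flies of 20 d, Obp44a and Obp56a differed between conditions. Obp44a measured 7.39, 8.10, 7.71 and 8.84 at 2g, 9.98 and 10.21 at 1g-rot, and 10.36 and 10.21 at 1g outside. All arrays at 2g were below those of both controls. It fell by 2.28 against 1g outside (SE 0.27, limma adjusted p = 0.00172) and by 2.09 against 1g-rot (limma adjusted p = 0.00142), and it was the only member called in the second comparison. The shares of all probesets called were 0.852% and 2.01%. Obp56a separated the flies differently, with 7.11, 6.64, 6.55 and 6.96 at 2g, 6.59 and 6.15 at 1g-rot, and 8.43 and 8.19 at 1g outside. Against 1g outside it fell by 1.495 at 2g (limma adjusted p = 0.00456) and fell by 1.94 at 1g-rot (limma adjusted p = 0.0343), where it was the single probeset called of all 18769 (0.00533%). Obp19a was higher at 2g (7.89, 8.21, 8.21 and 8.17) than at 1g outside (7.38 and 7.36), by 0.75 (limma adjusted p = 0.0397). At 1g-rot Obp19a measured 7.97 and 7.51, which overlapped the values at 2g. These 3 comparisons share the control arrays.

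The number of arrays limits these calls. Without replicate 1 of the 1g arrays at 20 d, 0 members were called between 2g and 1g outside, and Obp44a then had a limma adjusted p of 0.0616. Obp19a lost its call without any 1 of the arrays but replicate 1 at 2g. Obp56a lost its call at 1g-rot without any 1 of the 4 arrays (limma adjusted p from 0.123 to 0.401). In flies of 20 d the eye list median was 7.14 to 7.62 at 2g, 7.80 and 7.97 at 1g outside, and 7.64 and 8.14 at 1g-rot, and Arr1 was at 9.20 to 9.94 at 2g, 11.20 and 11.42 at 1g-rot and 11.08 and 11.23 at 1g outside. The eIF-4a 3′ minus 5′ signal was 0.99 to 1.26 at 2g, 0.62 and 0.67 at 1g-rot and 0.79 and 0.81 at 1g outside. The part of these in the fall of Obp44a was not tested. In the difference of the 2g effect between ages 0 of 47 members were called (background 0.0586%, 10 at an unadjusted p under 0.05). Obp44a had the smallest p there (-1.55, SE 0.39, limma adjusted p = 0.202), so its fall at 2g was not shown to differ between 5 d and 20 d.

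Obp18a rose with age and Obp19b, Obp57c and Obp99b fell in all 3 conditions at the centrifuge. More members were called between ages than between gravity levels there, but so were more of all probesets, and the count is not read as a result about the members. Between 20 d and 5 d, 10 of 47 members were called at 1g outside (1 higher, 9 lower, background 11.1%, of which 4.98% higher and 6.14% lower), 9 at 1g-rot (2 higher, 7 lower, background 18.5%, 8.22% higher and 10.2% lower) and 8 at 2g (2 higher, 6 lower, background 18.9%, 10% higher and 8.86% lower). At 1g-rot and at 2g the shares of members called were close to those backgrounds. The median difference was -0.14, -0.11 and -0.12 over members and 0.01, 0.02 and -0.02 over all probesets. Of the 14 members called at least once, 0 were called in opposite directions. Obp18a rose from 9.39 and 9.13 to 10.20 and 9.96 at 1g outside, from 9.08 and 9.07 to 10.02 and 9.71 at 1g-rot, and from 9.17 to 9.45 up to 9.88 to 10.02 at 2g. No array of 5 d reached an array of 20 d in any of the 3.

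Obp99b had the largest fall that held in all 3 conditions. It measured 8.66 and 7.45 at 5 d and 5.71 and 6.37 at 20 d outside at 1g (fall by 2.02, SE 0.42). At 1g-rot it went from 7.13 and 7.95 to 6.65 and 5.59 (fall by 1.42, SE 0.42). At 2g it went from 7.25, 8.17, 7.77 and 7.25 to 5.92, 5.54, 5.42 and 5.57 (fall by 2.00, SE 0.30, limma adjusted p = 1.55e-04). Flies of 20 d were thus lower without overlap in each condition. Obp44a fell by 2.56 at 2g (SE 0.22, limma adjusted p = 5.44e-07) and by 1.01 at 1g-rot (SE 0.31), and its difference at 1g outside of -1.01 did not pass. Obp56a fell by 1.27 at 2g and by 2.00 at 1g-rot and measured 8.80 and 8.69 at 5 d and 8.43 and 8.19 at 20 d outside at 1g, where it did not pass. Obp56e, Obp99d, Obp49a, Obp19a, Obp19d and Obp56g were called lower in flies outside at 1g, and of these Obp56e and Obp99d were also called lower at 1g-rot. Obp56d fell at 2g alone (by 1.07, SE 0.19), and Obp99c rose at 1g-rot (0.54, SE 0.13) and at 2g (0.39, SE 0.09). Among antennal members only Obp19a at 1g outside was called with age (fall by 0.84, SE 0.18).

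**Figure D5:**
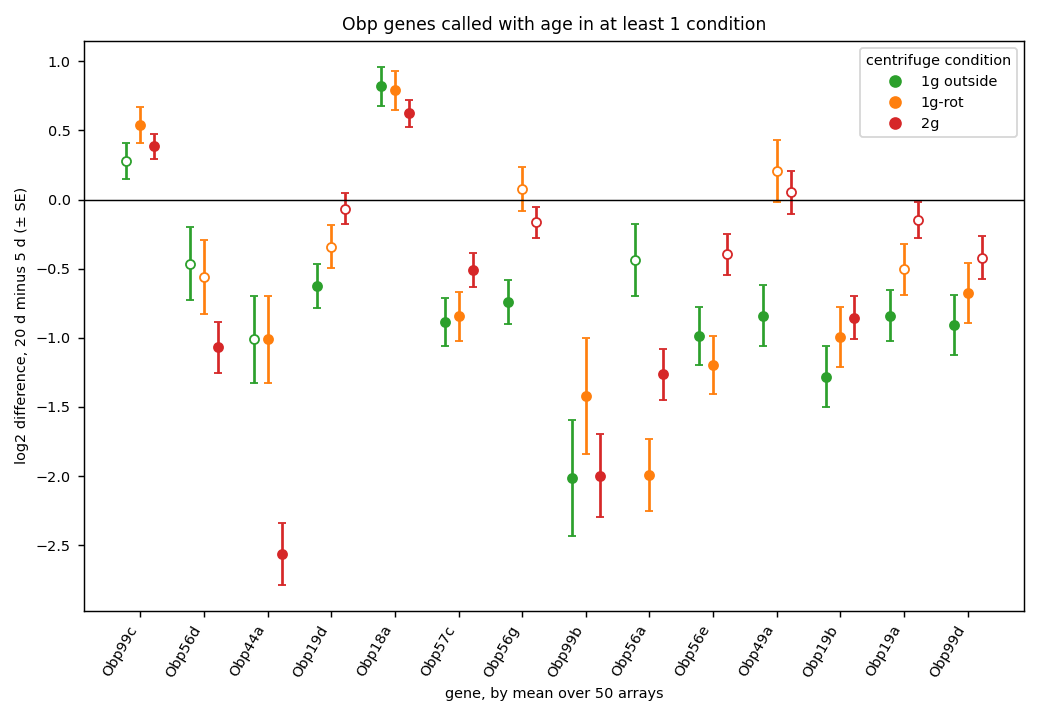
Log2 difference between 20 d and 5 d (± SE of the fit) of the 14 Obp genes called in at least 1 of 3 centrifuge conditions, with filled circles for calls and open circles for differences that did not pass. Obp18a lies above 0 and Obp19b, Obp57c and Obp99b lie below 0 with filled circles in all 3 conditions.

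With 2 arrays a group outside at 1g, 4 to 7 members were called there when 1 array was left out. Obp18a and Obp19b kept their call in all 3 conditions with any 1 array left out. Obp99b lost it outside at 1g without replicate 1 of either age and at 1g-rot without replicate 2 of either age. Obp57c lost it outside at 1g without replicate 1 at 5 d and at 1g-rot without replicate 1 at 20 d. Obp49a lost its call outside at 1g without any 1 of the 4 arrays (limma adjusted p from 0.0701 to 0.138), and so did Obp44a at 1g-rot (limma adjusted p from 0.0639 to 0.203). Outside at 1g, Obp19d lost its call without 3 of the 4 arrays in turn, Obp19a, Obp56g and Obp99d without 2 and Obp56e without 1. At 1g-rot Obp99d lost it without 3 and Obp99c without 2. At 2g the 8 members kept their call with any 1 of the 8 arrays left out. The eye list median was lower at 20 d in all 3 conditions without overlap, at 7.14 to 8.14 over the 20 d arrays and 8.37 to 8.81 over the 5 d arrays. Its part in the age differences was not tested.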

How the data were processed

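RNA of whole adult flies was measured on Affymetrix Drosophila 2.0 arrays. The deposited table held log2 intensities of 18952 probesets on 50 arrays, which the authors had background-corrected, quantile-normalised and summarised by RMA. The submitters' processing notes name RMA and limma; for both, the version was not given in the sources used here. After removal of 183 control probesets, 18769 were tested, and 13646 had a single gene symbol on the platform annotation. Gene order and current symbols came from the RefSeq gene table (Release 6 plus ISO1 MT).

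For each facility run (RPM, magnet, 80 h magnet, centrifuge) a group-means model was fitted to all its arrays with limma 3.58.1 in R 4.3.3, with no filter, and p-values were adjusted by Benjamini-Hochberg over all 18769 probesets; members were called at an adjusted p under 0.05. The comparison across facilities used 1 fit of all 18 groups and was added after seeing the data. A member was above background where a group mean was at least 1 over the 95th percentile of 50 plant control probesets. Between the RPM labels, bounds were given for Obp51a, Obp56f, Obp22a and Obp56i, which were at background on arrays labelled males. Other differences are fitted values, also where a group was at background. The number of arrays limits the precision, and no read depth applies.

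The members and gene lists were chosen with earlier results of these data known. Named were every called member (the 8 largest differences without overlap where more than 8 were called), the 2 smallest p values in each direction where none was called, the antennal, seminal and Minus-C members and Obp49a, Obp56d, Obp56a, Obp56h, Obp57d and Obp57e, with lush, Orco, Arr1, Yp1 and Acp36DE. Os-C, a10 and Jhedup were named after their values were seen. Title replicate numbers were not shown to pair the arrays: in no comparison with 3 or more pairs did every pair of deviations correlate above 0.1. Comparisons with 2 pairs are too small to decide this. Their correlations ran from -0.342 (magnet 1g* minus outside 14C) to 0.281 (1g outside the centrifuge, 20 d minus 5 d). Alternatives covered normalisation, centring, dim probesets, arrays in the fit, variance model, replicate and array-letter blocks, probeset choice, arrays with transcripts of both sexes and leaving out each array. The fits were tested on simulated data.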

Additional observations from a re-analysis of the deposited data

Results flagged for a closer look

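In the 3 groups of 4 arrays, the 32 members above background in some or all groups gave 96 tests of whether 1 array stood apart from the other 3 (the gap over the range), and 6 did. Chance gives about 1 in 20 such tests. In labelled males at 0g replicate 1, which carries transcripts of both sexes, Obp51a stood at 6.28 (others 3.66 to 3.90) and Obp83cd at 4.72 (others 5.04 to 5.10). In the centrifuge at 2g and 5 d, Obp73a was at 4.80 on replicate 4, with 5.03 to 5.06 on the others. In the centrifuge at 2g and 20 d, Obp19a was at 7.89 on replicate 1 (others 8.17 to 8.21), Obp8a at 5.21 on replicate 2 (others 4.95 to 4.99) and Obp56i at 3.59 on replicate 4 (others 3.78 to 3.79), the last at background on all 4 arrays.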

How the results depend on the processing

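No member called in the reported fits changed direction under the alternatives run, members not called were not followed one by one, and the cause of the changes in count below was not tested unless the alternative has fewer arrays. The call of Obp44a at 24C gave way to 0 members in a fit of the compared groups and with 24C replicate 1 placed with 14C. In the 80 h run, 0g* against outside went from 0 members to 1 with repeated quantile normalisation, centring, the compared groups alone or the mean of a gene's probesets, and to 2 with a variance trend and robust fit. The 4 members of 1g* against outside fell to 0 with the array letter as block and to 1 without the arrays of both sexes. At 5 d, 2g against 1g went from 1 to 0 with the compared groups alone and to 2 with the variance trend, and 1g-rot against 1g from 0 to 2 and 1 with these, and to 1 with the array letter. At 20 d, with the compared groups alone, 2g against 1g went from 3 to 1, 2g against 1g-rot from 1 to 0 and 1g-rot against 1g from 1 to 0; 2g against 1g-rot went to 2 with the variance trend or the mean of probesets, and 1g-rot against 1g to 0 with repeated quantile normalisation or the array letter.

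The replicate number as a block moved 1g* against outside at 80 h from 4 to 0, 2g against 1g at 5 d from 1 to 2, 1g-rot against 1g from 0 to 1 at 5 d and from 1 to 0 at 20 d. It gave 24 members between the RPM labels and 12, 9 and 9 with age at 1g, 1g-rot and 2g. The numbers were not shown to pair the arrays, and comparisons with 2 pairs could not decide it. The array letter could not be fitted between the RPM labels or for 2g against either control at the centrifuge. With 1 array left out, the range was 22 to 24 members between the RPM labels, 1 to 2 at 24C against 14C (2 without 24C replicate 2), 0 to 2 in 0g* against 1g* in both magnet runs, 0 to 5 in 1g* against outside at 80 h, 0 to 0 in 2g against 1g at 5 d, 0 to 3 at 20 d, 1 to 1 in 2g against 1g-rot and 0 to 0 in 1g-rot against 1g at 20 d, 4 to 7, 6 to 8 and 8 to 9 with age, 0 to 1 for the 2g effect by age, and 5 to 13 and 15 to 19 across facilities at 14C and 24C. Centring each array moved the members between the RPM labels from 3 higher and 20 lower to 11 and 18. It moved the share of higher calls over all probesets from 45.8% to 28.6% in 1g* against outside at 80 h, from 44.3% to 32.3% in 0g* against outside, from 18.2% to 30% in 2g against 1g at 5 d and from 66% to 76.2% in 2g against 1g-rot at 20 d. A margin of 2 over background left 12 members in place of 15 above it in all groups.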
